A study of Arabidopsis thaliana with 6 samples.

Results

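The genes described here are the 7 Aux/IAA genes of Arabidopsis thaliana that form the clades of IAA7 and IAA8. They were taken by their locus identifiers: IAA7 (AT3G23050), IAA14 (AT4G14550), IAA16 (AT3G04730) and IAA17 (AT1G04250) in the first clade, and IAA8 (AT2G22670), IAA9 (AT5G65670) and IAA27 (AT4G29080) in the second. Of these 7, 6 are among the 17675 genes of the deposited table, and the RNA level of IAA14, which has no row there, was not analysed here. RNA-seq was done on 6 inflorescence libraries, 3 per group, of 3-week-old plants that all carried the ARF3:ARF3-GR transgene in the arf3-29 mutant. In these plants the auxin response factor ARF3, written in the label as driven by its own promoter, is fused to the steroid-binding part of the glucocorticoid receptor (GR), so the fusion protein acts once dexamethasone (DEX) is given. One group received 10 µM DEX in DMSO and the other DMSO, each with 0.015% Silwet L-77 as wetting agent, and flowers past stage 6 were dissected away. Plants without the fusion were not analysed here, so an effect of DEX itself cannot be told apart from an effect of ARF3-GR.

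Aux/IAA proteins are short-lived repressors of auxin responses. They bind auxin response factors (ARFs) on their target genes and bring in corepressors of the TOPLESS family. Auxin binds between an F-box receptor of the TIR1/AFB family and a short stretch of the Aux/IAA protein called the degron, which leads to ubiquitination and destruction of the repressor by the proteasome. Many Aux/IAA genes are themselves switched on by auxin, which closes a feedback loop. Within these clades, dominant degron mutants gave IAA7 the name AUXIN RESISTANT 2, IAA17 the name AUXIN RESISTANT 3 and IAA14 the name SOLITARY ROOT, and IAA27 is also known as PHYTOCHROME-ASSOCIATED PROTEIN 2.

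The degron is the part of these proteins that the receptor reads, and its coding sequence shows how the clades resemble each other and where they differ. The following stretches of 36 bases, written 5′ to 3′ on the coding strand, were read from the coding sequences of the RefSeq annotation of TAIR10.1. Capitals mark the 15 bases of the degron core, which code for glycine, tryptophan, proline, proline and a last residue.
IAA7: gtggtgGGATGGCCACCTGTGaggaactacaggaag
IAA14: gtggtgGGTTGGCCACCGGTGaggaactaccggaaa
IAA16: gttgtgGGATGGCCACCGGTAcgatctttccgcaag
IAA17: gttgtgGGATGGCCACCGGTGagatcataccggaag
IAA8: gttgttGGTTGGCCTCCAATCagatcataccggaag
IAA9: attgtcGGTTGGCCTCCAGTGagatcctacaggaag
IAA27: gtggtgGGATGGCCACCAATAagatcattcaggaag

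Each coding sequence held 1 in-frame copy of the core. The last core codon stands for valine in IAA7, IAA14, IAA16, IAA17 and IAA9, and for isoleucine in IAA8 and IAA27. The core begins at codon 73 to 85 in the IAA7 clade and at codon 146 to 186 in the IAA8 clade, whose proteins have longer N-terminal parts. The coding sequences of the IAA7 clade specify 229 to 243 residues and those of the IAA8 clade 305 to 338. Among the pairs, IAA7 and IAA14 had the highest identity, with 82.5% identical bases over 690 aligned coding bases. The lowest was 66.3% over 873 bases, for IAA9 and IAA27, which belong to the same clade. IAA14 and IAA27, of different clades, had 66.9% over 686 bases. Bases set against gaps were left out, so these shares cover stretches of unlike length and do not rank the pairs by distance.

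Sequence identity also bears on how reads are divided between genes. The longest annotated mRNA of each of the 7 genes was compared, and other mRNA models and other Aux/IAA genes were not. The longest exact run shared by any pair was 41 bases, between IAA7 and IAA14. Among the 6 genes with values it was 32 bases, between IAA16 and IAA17. The use of strand in counting is not given in the sources used here. IAA27 shares 41 exon bases, 2.86% of its exon length, with AT4G29070 on the opposite strand, and IAA9 shares 44 bases with a non-coding gene that has no row in the table.

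RNA levels are in RPM, the reads of a gene per 1000000 reads of all listed genes, and group values are the mean ± SD of n = 3 libraries. Changes are differences of DEX minus DMSO in log2(RPM + 1), a scale on which changes of weak genes come out too small. They were tested with limma across the whole table, with p-values adjusted after Benjamini and Hochberg. Recovered reads over the listed genes ranged from 10703769 to 14469527 per library. Each of the 6 genes was far above the listing minimum of 1 RPM, with a lowest value of 9.12 RPM, or 132 reads, for IAA17 in DEX replicate 2. DEX replicate 3 stood somewhat apart from the other DEX libraries, with Spearman correlations across genes of 0.985 and 0.987 to them, against 0.991 for every other pair within a group. RNA of ARF3 (AT2G33860) itself, from transgene and mutant allele together, was 248 ± 8.64 RPM in DMSO and 144 ± 4.14 RPM in DEX. The labels name floral meristems, and the 7 young flower markers looked up (LFY, AP1, STM, WUS, CLV3, AP3 and PI) all had values, with summed levels of 828 to 891 RPM in DMSO and 825 to 917 RPM in DEX. Within that sum, PI was higher in DEX, at 268 ± 7.33 against 173 ± 6.16 RPM (limma adjusted p = 1.3e-07). STM was lower, at 106 ± 17.9 against 138 ± 7.87 RPM (limma adjusted p = 0.00285), its log2 fold change of -0.39 being -0.24 without DEX replicate 3. AP3 was lower at 165 ± 19.6 against 192 ± 6.13 RPM (limma adjusted p = 0.0209), its log2 fold change of -0.23 being -0.13 without DEX replicate 3, and it did not pass without DMSO replicate 2 or 3 or without the intensity trend (adjusted p = 0.0886, 0.0678 and 0.118). LFY, AP1, WUS and CLV3 did not pass. LFY was near the threshold (limma adjusted p = 0.0523), and each of its DEX libraries lay below each DMSO library. So 3 of the 7 markers passed, against 57.7% of all genes. Their groups did not overlap for 4 of the 7, against 62.9% of all genes. The median log2 fold change of the 7 was -0.17, so the similar sums do not show that each marker was unchanged. Of 6 markers of older anthers, AMS and A9 had values. A9 was higher in DEX, at 9.36 ± 1.17 against 4.07 ± 0.403 RPM (limma adjusted p = 5.91e-05). AMS was at 2.27 ± 0.936 RPM in DEX and 0.593 ± 0.194 RPM in DMSO, below 1 RPM in every DMSO library. It was thus listed through its DEX libraries alone, so its higher level there (limma adjusted p = 0.0031) is not independent of the listing minimum. The summed level of AMS and A9 was 4.02 to 4.98 RPM in DMSO and 11.1 to 12.4 RPM in DEX. Because AMS is part of it, this sum is not independent of the listing minimum either. The part of either marker list in the results below was not tested. In bulk tissue, fewer cells that express a gene and less RNA per cell cannot be told apart.

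The clade of IAA7 split. IAA7 and IAA16 rose in DEX, to 2.57 and 1.80 times their DMSO means, while their relative IAA17 fell to 0.413 times. The 3 genes of the IAA8 clade all fell, to 0.832 times for IAA8, 0.809 times for IAA9 and 0.699 times for IAA27. Of the 6 genes with values, 2 were thus higher and 4 lower in DEX at an adjusted p of 0.05 (limma). Over all 17675 genes 57.7% passed, 29.6% higher and 28.1% lower, so a call alone does not set these genes apart. The median log2 fold change was -0.29 over the 6 genes and 0.004 over all genes.

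IAA7 is a repressor whose stabilised form makes plants resistant to auxin and agravitropic. Its RNA was at 10.7, 11.1 and 12.7 RPM in DMSO replicates 1 to 3 and at 26.6, 31.9 and 30.4 RPM in DEX replicates 1 to 3. Every DEX library lay above every DMSO library. The log2 fold change was 1.29 (SE 0.122, 95% interval 1.03 to 1.55, limma adjusted p = 8.81e-08), and 8.10% of all genes had a larger difference in either direction.

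IAA16, for which a stabilising mutation is known to reduce the response to auxin, had the highest RPM per kb of exon among the measured genes of its clade in both groups. It was at 51.4, 52.8 and 57.9 RPM in the DMSO libraries and at 99.0, 95.2 and 97.3 RPM in the DEX libraries. The DEX libraries agreed closely, with an SD of 1.94 RPM around 97.2 RPM, and none overlapped with DMSO. The log2 fold change was 0.84 (SE 0.0768, 95% interval 0.67 to 0.999, limma adjusted p = 6.18e-08).

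IAA17, whose stabilised form gives strong auxin-related defects in roots and shoots, moved the other way. It was at 21.7, 27.1 and 24.9 RPM in DMSO and at 9.25, 9.12 and 12.1 RPM in DEX. All 3 DEX values were below all 3 DMSO values, and the highest of them, 12.1 RPM, came from DEX replicate 3. The log2 fold change was -1.20 (SE 0.139, 95% interval -1.49 to -0.91, limma adjusted p = 1.10e-06), and 9.60% of all genes had a larger difference.

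IAA8 and IAA9 had the highest RPM of the 6 genes, with a mean RPM above that of 97.5% and 97.0% of the listed genes. IAA9, whose tomato counterpart restrains fruit set before pollination, was at 320, 317 and 323 RPM in DMSO and at 247, 247 and 283 RPM in DEX. The groups did not overlap, and the log2 fold change was -0.31 (SE 0.0648, 95% interval -0.44 to -0.17, limma adjusted p = 0.000628). Of all genes, 60.1% had a larger log2 difference in either direction.

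IAA8, for which a stabilised form has been linked to floral organ defects in Arabidopsis, was at 370, 354 and 369 RPM in DMSO and at 283, 268 and 360 RPM in DEX. DEX replicate 3 lay inside the DMSO range, so the groups overlapped. The log2 fold change was -0.28 (SE 0.0851, 95% interval -0.46 to -0.10, limma adjusted p = 0.0106). The call was lost when DEX replicate 2 was left out (log2 fold change -0.19, adjusted p = 0.0754), when DMSO replicate 3 was left out (adjusted p = 0.0506) and when limma ran with no intensity trend (adjusted p = 0.0987). With DEX replicate 3 left out the log2 fold change was -0.40 (adjusted p = 1.6e-09).

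IAA27 had the lowest RPM per kb of exon in its clade and the largest log2 difference of the 3. Its levels were 46.6, 42.3 and 45.9 RPM in DMSO and 32.04, 31.2 and 30.9 RPM in DEX, with no overlap. The log2 fold change was -0.50 (SE 0.0896, 95% interval -0.69 to -0.31, limma adjusted p = 0.000127). AT4G29070, which overlaps it on the opposite strand, was at 13.8 ± 1.65 RPM in DMSO and 22.5 ± 0.325 RPM in DEX (limma adjusted p = 0.00014), a difference opposite in direction to that of IAA27. The groups did not overlap for 5 of the 6 genes, IAA8 being the exception, against 62.9% of all genes.

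**Figure D1:**
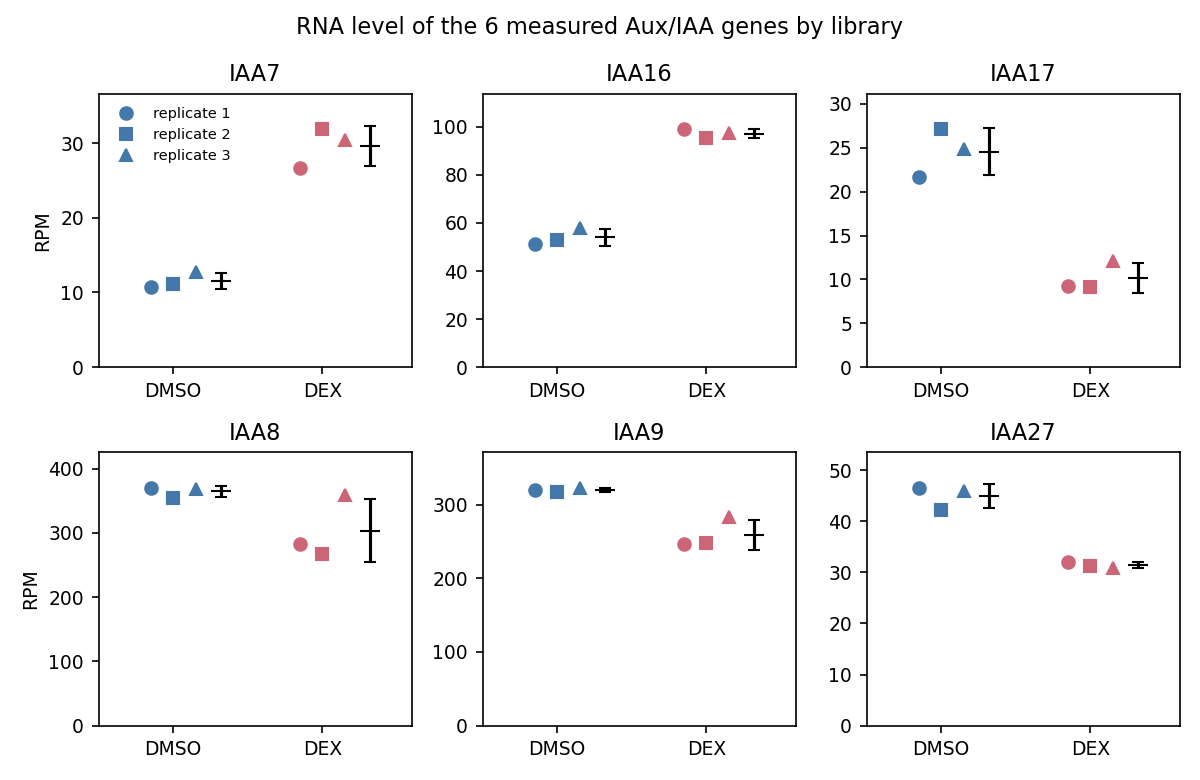
RNA level in RPM (vertical axes, each from 0) of the 6 measured genes in each DMSO (blue) and DEX (red) library, with the replicate number as symbol and the mean ± SD of 3 libraries in black. IAA7 and IAA16 are higher in each DEX library, IAA17, IAA9 and IAA27 are lower in each, and IAA8 in DEX replicate 3, at 360 RPM, lies among the DMSO values.

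To compare levels between genes, RPM was divided by the annotated exon length. In DMSO the order was IAA8 at 177 ± 4.33 RPM per kb, IAA9 at 150 ± 1.30, IAA27 at 31.3 ± 1.604, IAA16 at 26.7 ± 1.70, IAA17 at 18.7 ± 2.06 and IAA7 at 6.04 ± 0.559 RPM per kb. No neighbours in this order overlapped between their libraries. In DEX the order was IAA8 at 148 ± 24.0 RPM per kb, IAA9 at 121 ± 9.66, IAA16 at 48.0 ± 0.957, IAA27 at 21.9 ± 0.422, IAA7 at 15.5 ± 1.42 and IAA17 at 7.71 ± 1.28 RPM per kb. There, the libraries of IAA8 and IAA9 overlapped and the other neighbours did not. On this scale IAA16 and IAA27 thus exchanged places between the groups, as did IAA7 and IAA17. The exchange of IAA7 and IAA17 was also seen in undivided RPM, but that of IAA16 and IAA27 was not. In RPM, IAA16 was above IAA27 in both groups, with means of 54.0 against 44.9 in DMSO and 97.2 against 31.4 in DEX.

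**Figure D2:**
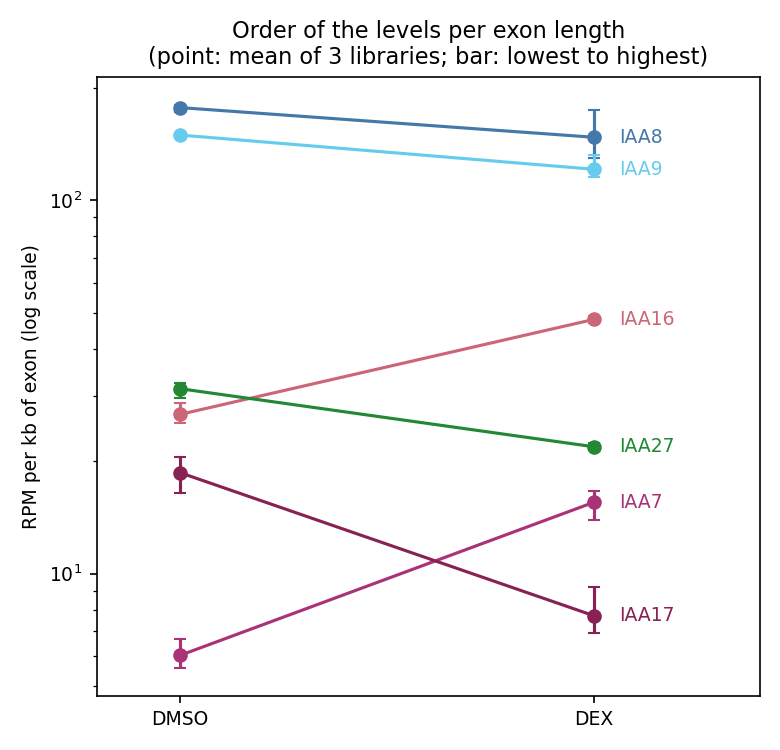
Level per exon length in RPM per kb (vertical axis, log scale) of the 6 genes in DMSO and DEX, with points at the mean of 3 libraries and bars from the lowest to the highest library. The lines of IAA16 and IAA27 cross, as do those of IAA7 and IAA17, while IAA8 and IAA9 stay highest in both groups at 121 to 177 RPM per kb.

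The makeup of each clade's RNA in the groups was followed as shares. Of the RPM summed over the 3 measured genes of the IAA7 clade, IAA17 held 27.2 ± 2.19% in DMSO and 7.404 ± 1.09% in DEX. IAA16 held 59.99 ± 1.75% and 71.0 ± 2.12%, and IAA7 12.8 ± 0.544% and 21.6 ± 1.84%. These shares are of RPM not divided by exon length. Per kb of exon, IAA17 held 36.3 ± 2.54% in DMSO and 10.8 ± 1.52% in DEX. IAA16 then held 52.0 ± 2.02% and 67.4 ± 2.28%, and IAA7 11.7 ± 0.599% and 21.8 ± 1.84%. In the IAA8 clade the shares were closer: IAA8 held 50.0 ± 0.326% in DMSO and 50.9 ± 2.26% in DEX, IAA9 43.9 ± 0.531% and 43.7 ± 1.65%, and IAA27 6.15 ± 0.207% and 5.33 ± 0.652%.

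The summed level of the measured IAA7 clade was 83.8 to 95.5 RPM in DMSO and 135 to 140 RPM in DEX. That of the IAA8 clade was 714 to 738 RPM in DMSO and 546 to 674 RPM in DEX, the highest DEX value again coming from replicate 3. Over all 6 genes the sum was 820 ± 14.2 RPM in DMSO and 731 ± 71.9 RPM in DEX, and the groups overlapped through DEX replicate 3, at 813 RPM. These sums are descriptions and were not tested.

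The balance between relatives was also followed as the log2 ratio of 2 genes within each library, for 6 pairs within the clades and 1 pair of neighbours on the chromosome, 7 ratios in all. The ratio of IAA7 to IAA17 was -1.03 ± 0.160 in DMSO and 1.46 ± 0.220 in DEX, so that IAA17 had the higher RPM in each DMSO library and IAA7 in each DEX library. The ratio of IAA16 to IAA17 went from 1.11 ± 0.150 to 3.15 ± 0.209, and that of IAA7 to IAA16 from -2.14 ± 0.0319 to -1.68 ± 0.157. For these 3 pairs, and for IAA8 against IAA27 and IAA9 against IAA27, the groups were fully separated (exact two-sided permutation test, p = 0.10 for each, the smallest that 3 against 3 libraries allow). The IAA8 to IAA27 and IAA9 to IAA27 groups overlapped with a pseudocount of 5 (exact permutation p = 0.20 for each). Their differences of 0.23 and 0.196 were 0.0872 and 0.119 without DEX replicate 3. The ratio of IAA8 to IAA9 was 0.19 ± 0.0267 in DMSO and 0.22 ± 0.118 in DEX (exact permutation p = 0.80), with no difference detectable beyond the spread of the libraries, and its small difference of 0.03 turned to -0.0321 without DEX replicate 3.

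In the annotation, 3 genes of the IAA7 clade each stand next to a gene of another Aux/IAA clade, with no other protein-coding gene between and on the opposite strand: IAA7 beside IAA2, IAA14 beside IAA1, and IAA17 beside IAA3. Both partners had values for the IAA7 and IAA2 pair alone. IAA2 (AT3G23030), a short-lived Aux/IAA repressor, was at 6.43, 6.67 and 7.82 RPM in DMSO and at 36.2, 36.7 and 48.8 RPM in DEX, a log2 fold change of 2.37 (SE 0.138, limma adjusted p = 1.34e-10). Both neighbours rose, IAA2 with the larger log2 difference. The log2 ratio of IAA7 to IAA2 was 0.65 ± 0.0129 in DMSO and -0.43 ± 0.232 in DEX (exact permutation p = 0.10, again the smallest possible). IAA1 (AT4G14560), the neighbour of IAA14, was at 1.02 ± 0.384 RPM in DMSO and 1.25 ± 0.666 RPM in DEX and did not pass (limma adjusted p = 0.692, 95% interval of the log2 difference -0.43 to 0.70). IAA3 was not analysed here.

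Of the other Aux/IAA genes, 14 of 22 looked up had values, and of these 9 rose, 1 fell and 4 did not pass (limma), against 29.6% higher and 28.1% lower over all genes. Their median log2 fold change was 0.64, against 0.004 over all genes. After IAA2, the largest rises were those of IAA4 (AT5G43700) at 1.99, IAA30 (AT3G62100) at 1.54 and IAA20 (AT2G46990) at 1.38. IAA20 was at 1.17 ± 0.466 RPM in DMSO and 4.59 ± 0.622 RPM in DEX. With 0.79 RPM in DMSO replicate 3, it met the listing minimum of 1 RPM in 3 libraries only with the help of its DEX libraries. Its rise, counted among the 9, is therefore not independent of that minimum. The 1 that fell was IAA32 (AT2G01200), at 4.41 ± 0.939 RPM in DMSO and 1.72 ± 0.603 RPM in DEX (limma adjusted p = 0.00109). The falls of IAA17, IAA8, IAA9 and IAA27 make up 4 of the 5 falls among the 20 Aux/IAA genes with values. These 5 of 20 lie near the 28.1% of all genes that were lower. IAA8, counted here, passed in 14 of 17 other settings. Without DEX replicate 3, 2 of the other Aux/IAA genes fell, IAA12 also passing at -0.34 (adjusted p = 0.00511).

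The partners of these repressors in auxin perception begin with the TIR1/AFB receptors. Of these 6 genes 4 fell and none rose (limma, median log2 fold change -0.27). The share called, 66.7%, lies near the 57.7% of all genes called in either direction, while 28.1% of all genes were lower. No receptor rose at an unadjusted p of 0.05 or with edgeR or DESeq2. AFB1 (AT4G03190) had 109 ± 2.03 RPM in DMSO and fell to 62.6 ± 1.33 RPM in DEX (limma adjusted p = 4.60e-08). AFB4 (AT4G24390) fell from 19.9 ± 1.504 to 13.3 ± 1.52 RPM and AFB2 (AT3G26810) from 98.3 ± 3.53 to 81.1 ± 6.85 RPM. AFB5 (AT5G49980) fell from 108 ± 4.64 to 90.6 ± 15.7 RPM (limma adjusted p = 0.0264), and its call was lost in 5 settings, which left 3 receptors that fell: its adjusted p was 0.138 without DEX replicate 1, 0.103 without DEX replicate 2, 0.0961 without DMSO replicate 2, 0.0925 without DMSO replicate 3 and 0.123 without the intensity trend. TIR1 and AFB3 had log2 differences of -0.01 and -0.04 and did not pass (95% intervals -0.15 to 0.12 and -0.20 to 0.12). Of the 4 subunits that build the ubiquitin ligase around these receptors none passed (limma), the nearest being ASK2 (AT5G42190) with 167 ± 2.44 and 153 ± 3.86 RPM (adjusted p = 0.0953) and RBX1 (AT5G20570) with 118 ± 5.13 and 127 ± 13.1 RPM (adjusted p = 0.234). The counts of 0 in this list were also 0 at an unadjusted p of 0.05 and with edgeR and DESeq2, but without DEX replicate 3 RBX1 passed at 0.18 (limma adjusted p = 0.0142).

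Of the 5 TOPLESS corepressors, which Aux/IAA proteins recruit, 4 fell and none rose (limma, median log2 fold change -0.69), against 28.1% lower and 57.7% in either direction over all genes. No rise was called at an unadjusted p of 0.05 or with edgeR or DESeq2. TPR3 (AT5G27030) had 58.6 ± 3.86 RPM in DMSO and fell to 30.2 ± 2.91 RPM in DEX (limma adjusted p = 2.51e-07). TPR1 (AT1G80490) fell from 134 ± 4.997 to 79.0 ± 12.1 RPM and TPR4 (AT3G15880) from 97.9 ± 3.23 to 60.5 ± 6.79 RPM. TPR2 (AT3G16830) had a log2 fold change of -0.25 (limma adjusted p = 0.0360), against an adjusted p of 0.133 and a change of -0.11 without DEX replicate 3, 0.0591 without DMSO replicate 1, 0.103 without DMSO replicate 2, 0.12 without DMSO replicate 3 and 0.147 without the intensity trend.

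Of the 5 activator ARFs, to which Aux/IAA proteins bind, 3 fell and none rose (limma, median log2 fold change -0.83). The 60% called is close to the 57.7% of all genes called in either direction, while 28.1% of all genes were lower. Among these ARFs there were 0 rises also at an unadjusted p of 0.05, with edgeR and with DESeq2. ARF8 (AT5G37020), which in Arabidopsis restrains fruit growth before fertilisation, had 105 ± 3.26 RPM in DMSO and fell to 53.3 ± 11.7 RPM in DEX (limma adjusted p = 1.69e-06). ARF5 (AT1G19850), needed to form flowers, fell from 208 ± 4.37 to 113 ± 3.18 RPM and ARF6 (AT1G30330), which acts with ARF8 in flower maturation, from 246 ± 7.68 to 139 ± 20.1 RPM. ARF7 and ARF19 had log2 differences of -0.09 and -0.24 and did not pass (95% intervals -0.37 to 0.20 and -0.58 to 0.10).

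**Figure D3:**
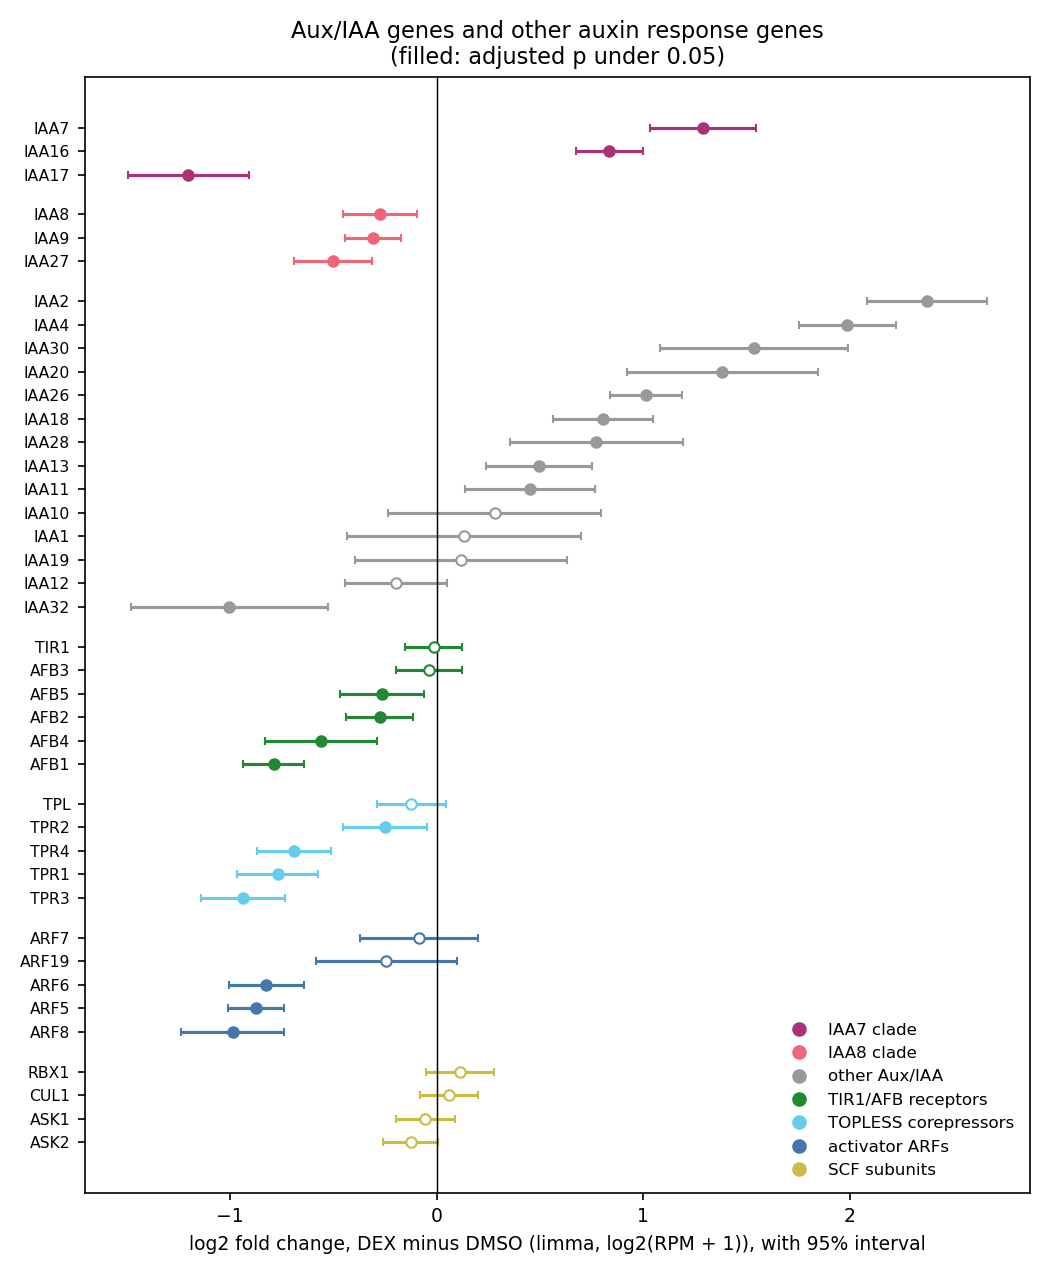
Log2 fold change of DEX against DMSO (horizontal axis, limma on log2(RPM + 1)) with its 95% interval for the 6 measured genes and 34 other genes of auxin response, coloured by group and filled where the adjusted p is under 0.05. IAA7 at 1.29 and IAA16 at 0.84 lie to the right with most other Aux/IAA genes, IAA17 at -1.20 lies left of the other genes shown on this scale, though IAA32, at -1.004 here, was at -1.37 against -1.28 for IAA17 with edgeR, and the IAA8 clade lies between -0.50 and -0.28.

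For each of the 6 genes, the profiles most like it were sought among 14190 genes with a mean of at least 5 RPM, by the Euclidean distance between profiles of log2(RPM + 1) over the 6 libraries, each centred on its own mean. The nearest to IAA9 was CCR1 (AT4G39260), at a distance of 0.0368, with 495 ± 8.52 RPM in DMSO and 406 ± 28.9 RPM in DEX. The nearest to IAA8 was XW6 (AT1G58380), at 0.0776, whose DEX values of 157, 156 and 199 RPM were, like those of IAA8, highest in replicate 3. The nearest to IAA17 was PHR1 (AT1G12370), at 0.130, with 14.1 ± 2.17 and 5.76 ± 0.776 RPM. The nearest to IAA16 was AT5G01780, at 0.0624, that to IAA27 was AT1G10490, at 0.0677, and that to IAA7 was AT2G39000, at 0.189. The second nearest were SYP43 for IAA9, AT5G20890 for IAA8, TK1a (AT3G07800) for IAA17, AT5G37350 for IAA16, AT1G77940 for IAA27 and AT1G15400 for IAA7. With 57.7% of all genes past the threshold, many profiles share the contrast between the groups, and these distances describe likeness over 6 libraries and nothing more.

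The changes of the 6 genes were recomputed under 17 other settings of the test, the scaling, the filter and the set of libraries. IAA7, IAA16, IAA17, IAA9 and IAA27 kept their direction and passed in all 17, and IAA8 kept its direction in all 17 and passed in 14. Not all 17 could differ from the main fit. The setting with no filter repeats it, because every gene of the table met the minimum. A minimum of 5 RPM, no intensity trend, robust moderation and the replicate block can alter the adjusted p but not the log2 fold change or its direction. The log2 fold change ranged from 1.07 to 1.36 for IAA7, from 0.79 to 0.89 for IAA16, from -1.32 to -0.97 for IAA17, from -0.40 to -0.19 for IAA8, from -0.37 to -0.27 for IAA9 and from -0.54 to -0.46 for IAA27.

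**Figure D4:**
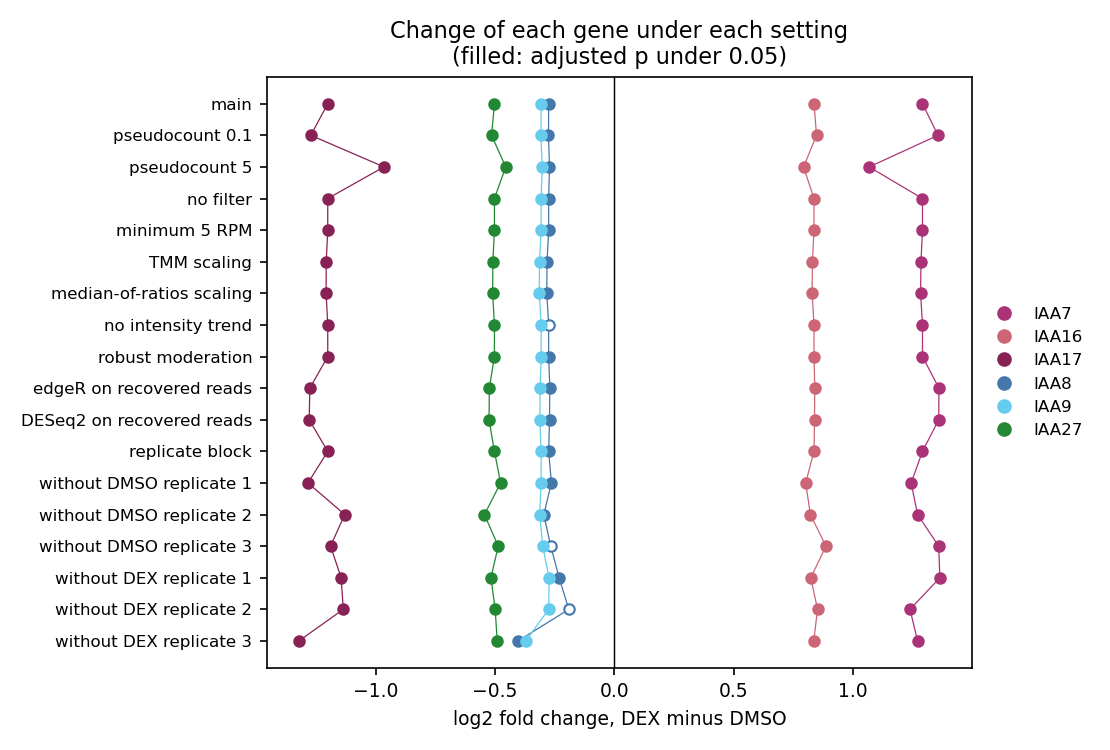
Log2 fold change of DEX against DMSO (horizontal axis) of the 6 genes under each setting (vertical axis), filled where the adjusted p is under 0.05. Each gene stays on its side of 0, and the open symbols, where the call was lost, belong to IAA8, at -0.28 without the intensity trend, -0.27 without DMSO replicate 3 and -0.19 without DEX replicate 2.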

How the data were processed

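The authors deposited 1 table of reads per 1000000 reads (RPM) for 17675 genes in 6 libraries, per the file headers. TopHat and HTSeq are named in the submitters' processing notes; no versions, settings, build or strandedness are stated in what was used here. Every gene of the table reached 1 RPM in no fewer than 3 libraries. Groups and replicate numbers come from the sample titles, and nothing says that replicates came from separate plants, so p-values rest on a spread between samples that may be technical. All values came out as whole reads within 0.01 reads in each library.

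RPM were tested as log2(RPM + 1) with limma 3.58.1 in R 4.3.3 (intensity trend, two-sided, Benjamini-Hochberg over all genes, threshold 0.05), after testing the procedure on simulated data. The simulation changed a small share of the genes and gave every library the same spread. It therefore does not show how the test behaves where 57.7% of genes pass and 1 library stands apart. Ratios were tested by exact permutation. Names, exon lengths and coding sequences were matched by locus tag in RefSeq TAIR10.1, and no coordinates are given because the build of the table is not stated. Coding sequences were aligned with Biopython 1.88. Alternatives were pseudocounts of 0.1 and 5, a minimum of 5 RPM or none, TMM and median-of-ratios scaling, limma with no trend, limma with robust moderation, edgeR 4.0.16, DESeq2 1.42.0 (both on recovered reads), a block for the replicate number, and each library left out. The members and lists were chosen with earlier results of these data known. The text names the members, up to 4 called genes of each list (or the 2 of smallest p), the chromosomal neighbours and the 2 nearest profiles per member. IAA32, IAA12, TIR1, AFB3, ARF7 and ARF19 were named after their values were seen, as were AT4G29070, LFY and the flower and anther markers that passed.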

Additional observations from a re-analysis of the deposited data

How the results depend on the processing

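Of the 6 genes, IAA8 alone lost its call under any of the 17 alternatives: without the intensity trend its log2 fold change was -0.28 (adjusted p = 0.0987), and with 1 library left out it ranged from -0.40 to -0.19 (adjusted p 1.6e-09 to 0.0754). The number of other Aux/IAA genes that fell was 0 with a minimum of 5 RPM, under which IAA32 was not tested, and 1 to 2 with 1 library left out. The number of ligase subunits that rose was 0 to 1 with 1 library left out. The difference in the log2 ratio of IAA8 to IAA9 ranged from -0.0321 to 0.0842 with 1 library left out. Genes that did not pass changed sign with 1 library left out, the log2 difference ranging from -0.0564 to 0.0347 for TIR1, -0.0703 to 0.0064 for AFB3 and -0.18 to 0.0859 for ARF7; the cause was not tested. The numbers in the titles are not stated to mark shared batches. Deviations of same-numbered libraries from their group means correlated at -0.0471, 0.0622 and 0.0291, against -0.105 to 0.0751 for differently numbered ones. Deviations from a mean of 3 libraries depend on each other, so these values do not decide whether batches were shared. With the replicate number as a block the 6 calls were the same, IAA8 at an adjusted p of 0.0034, and 5264 genes were higher and 4991 lower. Depth limits the weakest gene most, IAA17 in DEX with 99 to 173 reads per library.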
